A study of Mus musculus with 12 samples.

Results

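The 10 genes described here encode the pyruvate dehydrogenase complex and the enzymes that switch it off and on. They are the kinases Pdk1, Pdk2, Pdk3 and Pdk4, the phosphatase catalytic subunits Pdp1 and Pdp2, and the complex subunits Pdha1, Pdhb, Dlat and Pdhx. The genes were listed by name, and the probe set that reads each was chosen by its signal, as the one naming that gene alone with the highest mean over all 12 arrays, so this mean is given as a description only. Probe sets marked as open to cross-hybridisation were passed over where the gene had another. The 10 genes were taken from 18193 genes named by a probe set of their own, and 11099 of those genes reached the mean signal of 20 required for a test. Pdp1, with a mean of 26.6, lay just above that minimum and Pdk3, with a mean of 14.0, just below it, so 9 of the 10 were tested and Pdk3 is given as values. The 10 genes are named by 18 probe sets in all, and 5 of them by more than 1.

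Livers of C57BL/6 mice were frozen and hybridised to Affymetrix oligonucleotide arrays of the mouse genome, with 4 mice in each of 3 groups. All mice were 8 weeks old when feeding began and were fed for 8 weeks, and all livers are labelled as fasting. The MCD+HF+Met group received a high-fat diet lacking methionine and choline into which 0.1% metformin was mixed, the MCD+HF group received that diet alone, and the NC group received normal chow. No transgene or deletion is named for any group, and the diet is a nutritional model of steatohepatitis in which metformin was given from the first day of feeding, so no MCD+HF+Met value has a baseline before treatment.

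The pyruvate dehydrogenase complex sits in the mitochondrial matrix and turns pyruvate into acetyl-CoA, the step that commits carbon from glucose to oxidation or to lipid synthesis. Kinases of the Pdk family phosphorylate the E1 alpha subunit and stop the reaction, and the Pdp phosphatases reverse this. In liver, Pdk2 and Pdk4 are the best studied kinases, and Pdk4 is known for its rise in fasting and under a supply of fatty acids, when pyruvate is spared. Array signals report messenger RNA only, so neither phosphorylation nor enzyme activity was measured.

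Promoter windows are shown for the genes that moved most clearly, the kinases Pdk4 and Pdk2, and for Pdha1 and Pdhb, which together make the E1 enzyme, because members of each pair moved unequally. The sequences are from RefSeq on GRCm38.p6, run from 250 bases before to 50 bases after the annotated start and are written 5′ to 3′ on the coding strand. Capitals mark the CCAAT box, written CCAAT or, on the other strand, ATTGG. The positions are chr6:5496229-5496528 for Pdk4, chr11:95041322-95041621 for Pdk2, chr14:8172943-8173242 for Pdhb and chrX:160138381-160138680 for Pdha1, each on the minus strand.
Pdk4: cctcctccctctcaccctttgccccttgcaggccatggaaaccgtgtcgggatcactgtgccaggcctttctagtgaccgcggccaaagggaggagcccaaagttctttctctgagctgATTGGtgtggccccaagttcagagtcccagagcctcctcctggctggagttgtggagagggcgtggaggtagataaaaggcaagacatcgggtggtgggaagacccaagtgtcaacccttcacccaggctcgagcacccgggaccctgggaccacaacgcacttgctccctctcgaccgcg
Pdk2: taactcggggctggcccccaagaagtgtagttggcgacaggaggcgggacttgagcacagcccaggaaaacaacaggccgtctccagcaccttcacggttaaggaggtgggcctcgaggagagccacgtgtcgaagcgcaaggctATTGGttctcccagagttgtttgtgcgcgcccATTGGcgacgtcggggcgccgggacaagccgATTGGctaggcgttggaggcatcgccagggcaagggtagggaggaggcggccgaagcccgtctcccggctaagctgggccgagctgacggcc
Pdhb: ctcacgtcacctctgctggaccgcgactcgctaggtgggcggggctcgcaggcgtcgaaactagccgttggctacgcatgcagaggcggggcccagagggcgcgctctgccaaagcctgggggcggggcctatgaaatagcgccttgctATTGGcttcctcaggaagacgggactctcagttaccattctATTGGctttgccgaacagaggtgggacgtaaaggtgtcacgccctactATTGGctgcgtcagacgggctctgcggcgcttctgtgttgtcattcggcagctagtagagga
Pdha1: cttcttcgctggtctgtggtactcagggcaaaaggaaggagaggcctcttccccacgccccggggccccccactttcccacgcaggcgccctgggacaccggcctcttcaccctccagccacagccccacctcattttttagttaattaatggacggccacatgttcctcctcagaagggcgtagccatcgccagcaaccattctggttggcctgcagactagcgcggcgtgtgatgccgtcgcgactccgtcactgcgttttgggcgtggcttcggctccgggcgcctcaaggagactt

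The Pdk4 window held 1 CCAAT box, beginning 131 bases before the start (position -131). The Pdk2 window held 3, at -105, -73 and -42, and also the E-box CACGTG at -126. The Pdhb window likewise held 3, at -101, -60 and -12, whereas the Pdha1 window held none. Among the matched genes not shown, Pdp2 held 2 CCAAT boxes and also CACGTG, and Pdhx and Pdk3 held 1 CCAAT box each. Dlat and Pdk1 held neither motif. Of 32851 promoter windows of 300 bases, 37.4% held at least 1 CCAAT box and 3.37% held 3 or more, while 7.15% held CACGTG. Neither AGGTCA, the core bound by nuclear receptors, nor TGTTTAC, the core bound by FOXO proteins, was found on either strand in the windows of the 9 matched genes, against 16.3% and 3.65% of all windows. Pdk2 has a second annotated start whose window held none of the 4 motifs, and no window was matched for Pdp1. A match describes letters and no binding was measured.

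Pdk4 was by far the most changed member. Its signal was 1224, 2824, 2377 and 2947 in the MCD+HF+Met mice, 2501, 3276, 4703 and 4628 in the MCD+HF mice, and 44.0, 41.1, 25.1 and 36.9 in the NC mice. Every array of either MCD+HF group lay far above every NC array, and MCD+HF+Met mice overlapped with MCD+HF mice. The means were 2343 ± 785 in MCD+HF+Met livers, 3777 ± 1074 in MCD+HF livers and 36.8 ± 8.31 in NC livers (SD, n = 4 each), so that the MCD+HF mean was 103 times and the MCD+HF+Met mean 63.7 times the NC mean.

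On the log2(signal + 10) scale used for all tests, which understates changes of low signals, Pdk4 rose by 6.31 in MCD+HF livers against NC livers (SE 0.25, 95% interval 5.77 to 6.85, limma adjusted p = 5.89e-11). It rose by 5.59 in MCD+HF+Met livers against NC livers (95% interval 5.06 to 6.13, limma adjusted p = 3.35e-10), and both comparisons share the NC arrays. In each of them Pdk4 had the second largest rise among the 11099 genes tested. Against MCD+HF livers the MCD+HF+Met mean differed by -38%, a log2 difference of -0.72 (95% interval -1.25 to -0.18) that had an unadjusted p of 0.0121 and did not pass over all probe sets (limma adjusted p = 0.13). It was -0.43 without MCD+HF+Met replicate 1, the lowest of that group (limma adjusted p = 0.276). Pdk4 also varied more between mice of a group than most genes, with a within-group SD of 0.45 on the log2 scale against a median of 0.20 over all genes, at percentile 95.

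Markers of skeletal muscle and fat, tissues in which Pdk4 is also expressed, were read beside it. The 4 muscle markers Ckm, Mylpf, Actn3 and Tnnt3 summed to a signal of 15.2 to 48.7 in MCD+HF+Met livers, 19.9 to 43.3 in MCD+HF livers and 43.7 to 64.5 in NC livers, and none reached a mean of 20 over the 12 arrays, although Ckm averaged 25.3 in NC livers. The 2 measured adipocyte markers of 4, Adipoq and Lep, summed to between 1.2 and 13.5 on every array. Any part of these tissues in the Pdk4 signal was not tested.

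Pdk2, the most widely expressed kinase of the family, moved the other way. Its signal was 269, 274, 268 and 224 in MCD+HF+Met mice, 175, 158.5, 234 and 219 in MCD+HF mice, and 334, 367, 333 and 395 in NC mice. Every mouse on either MCD+HF diet lay below every NC mouse, and 3 of 4 MCD+HF+Met mice lay above every MCD+HF mouse. The means were 259 ± 23.2 in MCD+HF+Met livers, 197 ± 35.8 in MCD+HF livers and 357 ± 29.7 in NC livers (SD, n = 4 each).

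Pdk2 fell by 44.9% in MCD+HF livers against NC livers, a log2 change of -0.84 (SE 0.13, 95% interval -1.11 to -0.58, limma adjusted p = 5.67e-05). In MCD+HF+Met livers it fell by 0.45 against NC livers (95% interval -0.72 to -0.19, limma adjusted p = 0.00943). The MCD+HF+Met level was above the MCD+HF level by 0.39 (95% interval 0.12 to 0.66, unadjusted p = 0.00678), which did not pass after adjustment (limma adjusted p = 0.0988). For both kinases the MCD+HF+Met mean lay between the MCD+HF and NC means, and for neither was the step from MCD+HF to MCD+HF+Met a call.

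**Figure D1:**
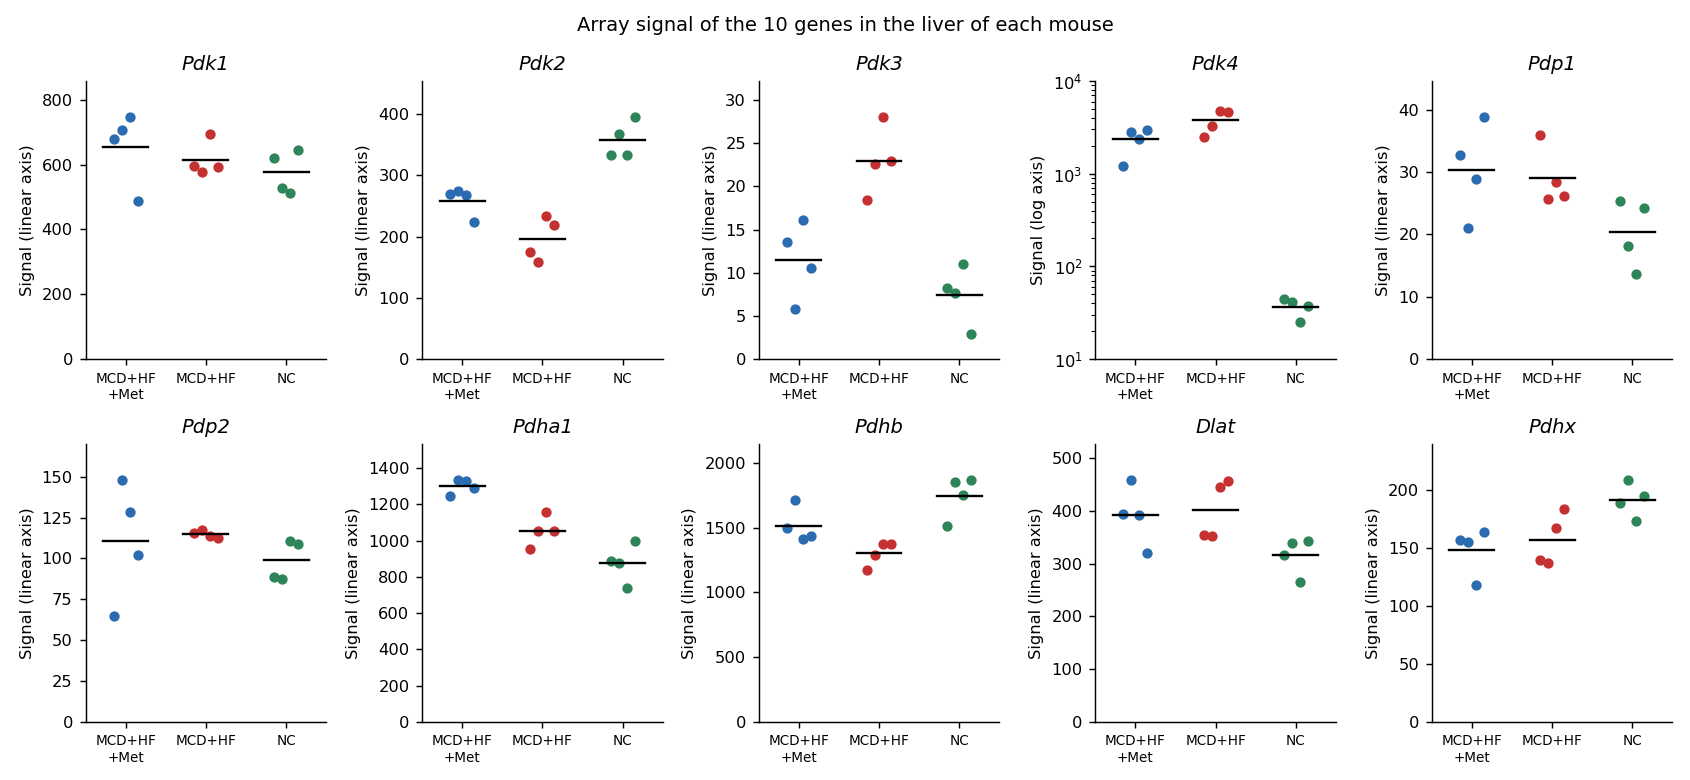
Array signal (y axis, scaled by the authors so that each array averages 100) of each of the 10 genes in the MCD+HF+Met, MCD+HF and NC groups (x axis); points are mice and bars are group means, and the Pdk4 panel alone has a log axis. Pdk4 lies at 1224 or above in all mice on either MCD+HF diet, against 25.1 to 44.0 in NC mice, while Pdk2 is 274 or below in those mice, against 333 or above in NC mice.

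Markers of hepatocytes also moved with the diet. The 6 hepatocyte markers Alb, Apoa1, Ttr, Fgb, Tat and Asgr1 summed to 40249 to 53413 in MCD+HF+Met livers, 35916 to 45869 in MCD+HF livers and 74389.8 to 88459.8 in NC livers, and 5 of the 6 were lower in MCD+HF livers than in NC livers by limma. Over all genes tested, 27.4% passed higher and 20.8% lower in MCD+HF against NC livers. None of the 6 hepatocyte markers was called between MCD+HF+Met and MCD+HF livers, against 3.97% of all genes. All 6 gave high signals on every array, as the label of liver requires. In whole tissue, fewer cells of a type and less RNA per cell cannot be told apart, and the part of this shift in the falls of Pdk2 and Pdhb was not tested.

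Markers of other liver cells moved as well. Their counts stand beside 27.4% of all genes higher and 20.8% lower in MCD+HF against NC livers. In MCD+HF+Met against MCD+HF livers, 1.63% of all genes passed higher and 2.34% lower. Of 6 stellate cell and fibroblast markers, 5 rose in MCD+HF against NC livers, with sums of 923 to 1614 in MCD+HF+Met livers, 1248 to 1819 in MCD+HF livers and 384 to 457 in NC livers, and all 4 cholangiocyte markers rose too. Of the 6 stellate cell and fibroblast markers, only Col1a2 passed between MCD+HF+Met and MCD+HF livers, falling by 0.73 (limma adjusted p = 0.0293). Acta2 and Des stood higher there, at 0.46 and 0.47, and neither was called. Col1a1, Lrat and Pdgfrb stood at -0.32, -0.28 and -0.19, and none of them was called. Of 6 macrophage markers, 3 rose and 2 fell with the diet and 3 fell in MCD+HF+Met against MCD+HF livers, with sums of 1983 to 3021 in MCD+HF+Met livers, 3946 to 5978 in MCD+HF livers and 2402 to 2958 in NC livers. Their part in the values of the 10 genes was not tested.

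Pdk1, a kinase known as a target of hypoxia signalling, showed no change in its brightest probe set. Its means were 655 ± 115 in MCD+HF+Met livers, 614 ± 53.1 in MCD+HF livers and 577 ± 66.5 in NC livers (SD, n = 4 each), with the log2 change at 0.09 for MCD+HF against NC (limma adjusted p = 0.588). The change of MCD+HF+Met against NC livers was 0.17 (limma adjusted p = 0.315), and it became a call without MCD+HF+Met replicate 4, whose 488 was the lowest of all 12 signals (limma adjusted p = 0.0352). The next brightest Pdk1 probe set gave log2 changes of 0.16, 0.01 and 0.17 in the 3 comparisons, none of them called.

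The dimmest of the tested Pdk1 probe sets gave a different answer. It averaged 82.8 in MCD+HF+Met livers, 80.0 in MCD+HF livers and 129 in NC livers, a log2 change of -0.61 with the diet (limma adjusted p = 0.00158) and of -0.58 for MCD+HF+Met against NC livers (limma adjusted p = 0.00293). The last Pdk1 probe set was too dim to test and averaged 11.5 in MCD+HF+Met livers, 12.6 in MCD+HF livers and 24.2 in NC livers. The deposited values do not say which transcripts each probe set reads, so the direction of Pdk1 depends on the probe set.

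Pdk3, the fourth kinase, was dim. Its signals were 13.5, 5.8, 16.1 and 10.6 in MCD+HF+Met mice, 18.4, 22.6, 28 and 22.9 in MCD+HF mice, and 8.2, 7.6, 11 and 2.9 in NC mice. All 4 MCD+HF mice lay above every mouse of the other 2 groups, but only 3 of the 12 signals exceeded 20, all from MCD+HF mice. Fitted with no filter on dim probe sets, the difference between MCD+HF and NC livers was 0.93 (SE 0.21, limma adjusted p = 0.00373), and that of MCD+HF+Met against MCD+HF livers was -0.63 (limma adjusted p = 0.194). At this brightness the values are a description.

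No phosphatase passed the test in any comparison. Pdp1, the calcium-sensitive isoform, averaged 30.4 ± 7.46 in MCD+HF+Met livers, 29.0 ± 4.78 in MCD+HF livers and 20.4 ± 5.46 in NC livers (SD, n = 4 each). Every MCD+HF mouse, at 25.7 to 36.0, lay above the NC mice, at 13.7 to 25.3, and the log2 change was 0.37 (limma adjusted p = 0.116). For MCD+HF+Met against NC livers it was 0.41 (limma adjusted p = 0.0921), which became a call without MCD+HF+Met replicate 2 (limma adjusted p = 0.0434).

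Pdp2, the isoform of liver and fat that responds to insulin, had signals of 64.5, 148, 129 and 102 in MCD+HF+Met mice, 116, 118, 114 and 112 in MCD+HF mice, and 88.5, 87.5, 111 and 109 in NC mice. The MCD+HF mice lay within a narrow band just above the NC mice, while the MCD+HF+Met mice spread across both. The log2 change was 0.20 for MCD+HF against NC livers (limma adjusted p = 0.387) and -0.10 for MCD+HF+Met against MCD+HF livers (limma adjusted p = 0.816). MCD+HF+Met replicate 1 had the lowest and replicate 2 the highest of all 12 signals, and leaving out either one turned the sign of a metformin comparison.

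The catalytic E1 enzyme is built from the subunits encoded by Pdha1 and Pdhb, and their messages moved apart relative to NC livers. Both stood higher in MCD+HF+Met than in MCD+HF livers, where neither difference was called. Pdha1, the subunit that the kinases phosphorylate, had signals of 1247, 1335, 1327 and 1292 in MCD+HF+Met mice, 955, 1051, 1156 and 1052 in MCD+HF mice, and 888, 877, 738 and 998 in NC mice. Every MCD+HF+Met mouse lay above all 8 other mice, and the MCD+HF and NC ranges overlapped. The means were 1300.2 ± 40.5 in MCD+HF+Met livers, 1054 ± 82.1 in MCD+HF livers and 875 ± 106 in NC livers (SD, n = 4 each).

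Pdha1 rose by 0.57 on the log2 scale in MCD+HF+Met livers against NC livers (95% interval 0.37 to 0.78, limma adjusted p = 0.000215). It rose by 0.27 in MCD+HF livers against NC livers (95% interval 0.07 to 0.47, limma adjusted p = 0.0326). That call was lost without MCD+HF replicate 2, 3 or 4 (limma adjusted p = 0.0649, 0.0994 and 0.0563) and without NC replicate 1, 2 or 3 (limma adjusted p = 0.0522, 0.0594 and 0.114), with the change at 0.19 to 0.33 when 1 array was left out. MCD+HF+Met livers stood 0.30 above MCD+HF livers (95% interval 0.10 to 0.51, unadjusted p = 0.00631) with no overlap between the groups, and this too missed the threshold (limma adjusted p = 0.095). The other Pdha1 probe set, at a mean signal of 354, gave -0.07 for that comparison (limma adjusted p = 0.879), 0.27 for MCD+HF against NC livers (limma adjusted p = 0.204) and 0.21 for MCD+HF+Met against NC livers (limma adjusted p = 0.349), so each Pdha1 call rested on 1 probe set.

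Pdhb, the E1 beta subunit, had signals of 1494, 1710.1, 1409.7 and 1436 in MCD+HF+Met mice, 1174, 1291, 1369 and 1375 in MCD+HF mice, and 1515, 1852, 1754 and 1867 in NC mice. The MCD+HF mice formed the lowest band, with no overlap with either other group. The means were 1512 ± 136 in MCD+HF+Met livers, 1302 ± 93.7 in MCD+HF livers and 1747 ± 163 in NC livers (SD, n = 4 each).

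Pdhb fell by 0.42 in MCD+HF livers against NC livers (SE 0.09, limma adjusted p = 0.00209), and its other probe set fell by 0.43 (limma adjusted p = 0.00475). Under quantile normalization the fall was 0.23 (limma adjusted p = 0.0404). MCD+HF+Met livers stood 0.21 above MCD+HF livers (95% interval 0.01 to 0.41, unadjusted p = 0.0397, limma adjusted p = 0.234). Against NC livers they were at -0.21 (limma adjusted p = 0.0973), which became a call without MCD+HF+Met replicate 2 (limma adjusted p = 0.0488) or NC replicate 1 (limma adjusted p = 0.0388) and in the other probe set (-0.35, limma adjusted p = 0.0197).

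**Figure D2:**
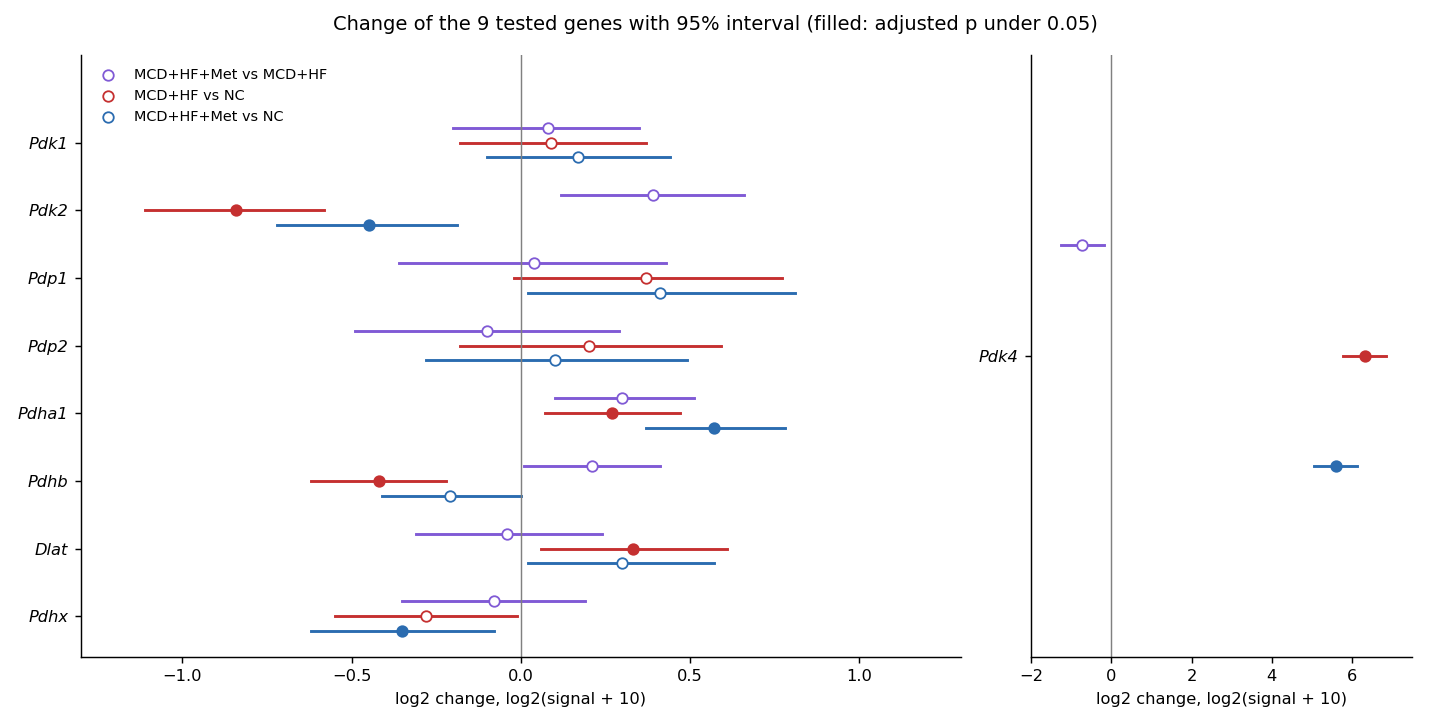
Change of each of the 9 tested genes (y axis) on the log2(signal + 10) scale (x axis) in the 3 comparisons, with 95% intervals and filled points for limma adjusted p under 0.05; Pdk4 has a panel and axis of its own. Pdk2 is filled at -0.84 and -0.45 and Pdk4 at 6.31 and 5.59, and no MCD+HF+Met against MCD+HF point is filled.

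Within single arrays, the log2 difference between Pdha1 and Pdhb was shifted by 0.78 ± 0.12 in MCD+HF+Met livers and by 0.69 ± 0.06 in MCD+HF livers relative to the NC mean, around which NC mice spread by 0.21 (SD, n = 4 each). All 8 mice on either MCD+HF diet were at 0.61 or above and all NC mice at 0.23 or below. The same difference between Pdk4 and Pdk2 was shifted by 6.04 ± 0.65 in MCD+HF+Met livers and 7.15 ± 0.27 in MCD+HF livers, with an SD of 0.27 among NC mice. Every MCD+HF+Met mouse, at 5.13 to 6.65, lay below every MCD+HF mouse, at 6.75 to 7.33. Each of the 2 genes on its own overlapped between these groups, and neither was called. They are the 2 members with the widest ranges of group means, and the share of all gene pairs that separate was not computed. These shifts show unequal change of the 2 messages and no ratio of their amounts, since each probe set has a brightness of its own, and they are a description with no test.

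**Figure D3:**
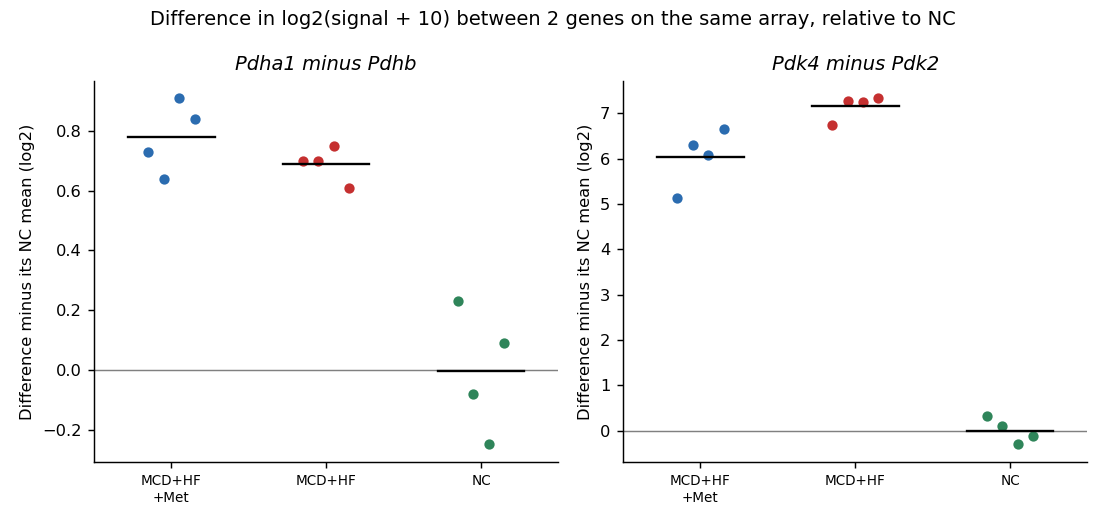
Difference in log2(signal + 10) between 2 genes on the same array minus the mean of that difference in NC mice (y axis), for MCD+HF+Met, MCD+HF and NC mice (x axis); points are mice and bars group means. Pdha1 minus Pdhb is at 0.61 or above in all mice on either MCD+HF diet, and Pdk4 minus Pdk2 is at 5.13 to 6.65 in MCD+HF+Met mice and 6.75 to 7.33 in MCD+HF mice. Neither Pdk4 nor Pdk2 was called between the MCD+HF+Met and MCD+HF groups, and the differences were not tested.

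Dlat, the E2 acetyltransferase that forms the core of the complex, had signals of 394, 459, 393 and 321 in MCD+HF+Met mice, 354, 353, 445 and 457 in MCD+HF mice, and 316, 340, 266 and 342 in NC mice. All MCD+HF mice lay above all NC mice, and MCD+HF+Met mice overlapped both groups. Its rise of 0.33 in MCD+HF livers against NC livers (95% interval 0.06 to 0.61, limma adjusted p = 0.046) was a call. It was lost without MCD+HF+Met replicate 1 or 3 (limma adjusted p = 0.0551 and 0.0537), without MCD+HF replicate 3 or 4 (limma adjusted p = 0.123 and 0.129) and without NC replicate 1, 2 or 3 (limma adjusted p = 0.0781, 0.0521 and 0.139), with the change at 0.26 to 0.39 when 1 array was left out. Another Dlat probe set rose by 0.44 (limma adjusted p = 0.0331), and the last one, marked as open to cross-hybridisation, gave 0.02 (limma adjusted p = 0.916). MCD+HF+Met against NC livers stood at 0.30 (limma adjusted p = 0.0792), a call without MCD+HF+Met replicate 4 (limma adjusted p = 0.0254).

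Pdhx, the protein that anchors the E3 enzyme to the core, averaged 148 ± 20.7 in MCD+HF+Met livers, 157 ± 22.6 in MCD+HF livers and 191 ± 14.9 in NC livers (SD, n = 4 each). MCD+HF+Met mice, at 118 to 164, all lay below NC mice, at 173 to 209, whereas MCD+HF mice, at 137 to 184, reached into the NC range. Pdhx fell by 0.35 in MCD+HF+Met livers against NC livers (limma adjusted p = 0.0377). That call was lost without MCD+HF+Met replicate 2 or 3 (limma adjusted p = 0.0526 and 0.123) and without NC replicate 1, 2 or 4 (limma adjusted p = 0.0639, 0.099 and 0.0695), with the change at -0.40 to -0.25 when 1 array was left out. The change of MCD+HF against NC livers was -0.28 (limma adjusted p = 0.0911), which became a call without MCD+HF replicate 4 (limma adjusted p = 0.0458).

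**Figure D4:**
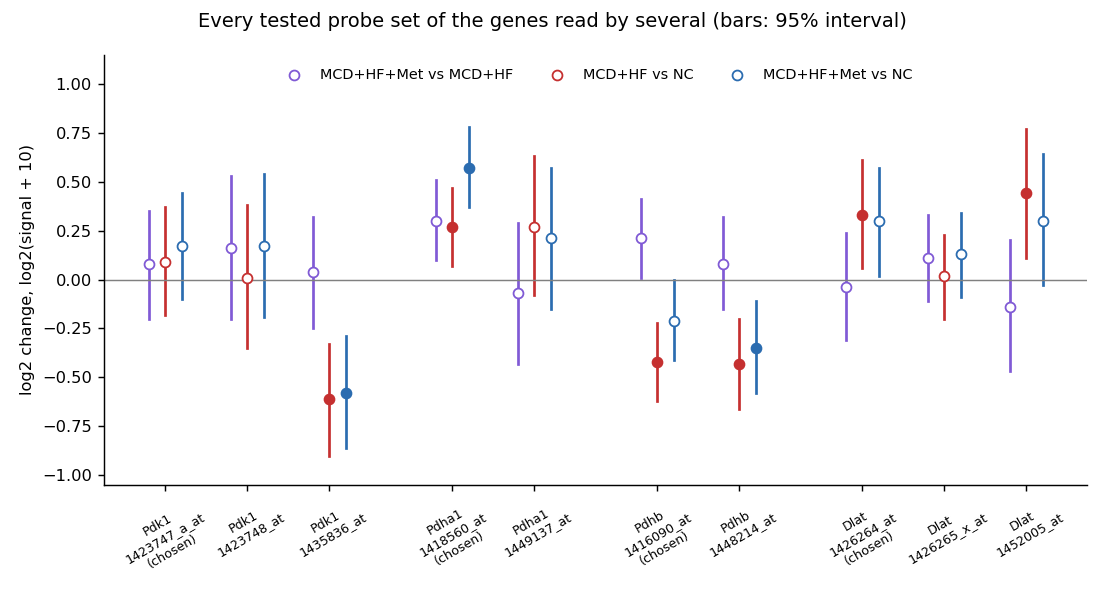
Change on the log2(signal + 10) scale (y axis) in the 3 comparisons for each tested probe set of the genes read by several (x axis), with 95% intervals and filled points for limma adjusted p under 0.05. The 2 Pdhb probe sets lie at -0.42 and -0.43 for MCD+HF against NC, while for Pdk1 the dimmest alone is filled, at -0.61.

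Counted over the 9 tested genes, 5 passed in MCD+HF against NC livers, with Pdk4, Pdha1 and Dlat higher and Pdk2 and Pdhb lower. Over all genes tested, 48.2% passed in this comparison, 27.4% higher and 20.8% lower, so the share among the 9 was near that of all genes. The median log2 change was 0.20 over the 9 and 0.05 over all genes, and 6 of the 9 had groups that did not overlap, against 45.1% of all genes. For MCD+HF+Met against NC livers, 4 passed, with Pdk4 and Pdha1 higher and Pdk2 and Pdhx lower, against 44.2% of all genes (25.6% higher and 18.6% lower).

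Between MCD+HF+Met and MCD+HF livers, none of the 9 passed by limma, against 3.97% of all genes (1.63% higher and 2.34% lower). At an unadjusted p under 0.05 there were 4, namely Pdk4, Pdk2, Pdha1 and Pdhb, against 19.8% of all genes. The last step of the rule in the methods, a change of over 1.5-fold with an unadjusted p under 0.05, run here without the GCOS change call that precedes it, also called 0 of them, against 3.94% of all genes. Of the 9, Pdha1 and Pdhb had groups that did not overlap, both higher in MCD+HF+Met livers, and 12.6% of all genes had such groups. The median over the 9 was 0.04 against 0.01 over all genes.

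The surrounding pathway was read from 6 lists, whose counts with the diet stand beside the 48.2% of all genes called in MCD+HF against NC livers (27.4% higher and 20.8% lower, median 0.05). Of 10 genes that supply or assemble the complex, 7 were tested, and in MCD+HF against NC livers 2 rose and 1 fell (median log2 change -0.12), 3 of 7 against 48.2% of all genes. Mpc1, a subunit of the mitochondrial pyruvate carrier, averaged 4129 in MCD+HF+Met livers, 4223 in MCD+HF livers and 3066 in NC livers, a diet change of 0.46 (limma adjusted p = 0.000138). The lipoyl transferases split, with Lipt2 at 1.16 (limma adjusted p = 4.47e-05) and Lipt1 at -0.97 (limma adjusted p = 5.61e-05). Dld, the E3 enzyme shared by all these complexes, was at -0.12 (limma adjusted p = 0.358). No gene of this list passed between MCD+HF+Met and MCD+HF livers, against 3.97% of all genes.

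Of the 8 genes of the sister complexes, which act on branched-chain keto acids and on 2-oxoglutarate and related acids, 1 rose and 3 fell with the diet (median 0.01), 4 of 8 against 48.2% of all genes. Dhtkd1, of lysine breakdown, fell by 1.40 (limma adjusted p = 3.99e-06), Dbt, the E2 core of the branched-chain complex, by 0.73 (limma adjusted p = 8.6e-06) and Ppm1k, the phosphatase of that complex, by 0.95 (limma adjusted p = 0.00104). Ogdh, the E1 enzyme for 2-oxoglutarate, rose by 0.43 (limma adjusted p = 0.00435). The same counts, 1 higher and 3 lower, were found in MCD+HF+Met against NC livers, where 44.2% of all genes passed. Between MCD+HF+Met and MCD+HF livers 0 passed, against 3.97% of all genes.

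Among 12 genes of other fates and sources of pyruvate, 5 rose and 1 fell in MCD+HF against NC livers (median 0.17), 6 of 12 against 48.2% of all genes. Pkm, the pyruvate kinase of non-hepatocyte tissues, rose by 2.07 (limma adjusted p = 8.35e-06), the monocarboxylate carrier Slc16a7 by 0.76 (limma adjusted p = 0.000182) and the alanine transaminase Gpt2 by 0.59 (limma adjusted p = 0.000911). Pck1, the entry enzyme of gluconeogenesis from oxaloacetate, averaged 5015 in MCD+HF+Met livers, 4785 in MCD+HF livers and 7588 in NC livers, and fell by 0.66 with the diet (limma adjusted p = 0.000143).

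Pklr, the pyruvate kinase of hepatocytes, was the only gene of the 6 lists that passed between MCD+HF+Met and MCD+HF livers. Over all genes, 3.97% passed in this comparison (1.63% higher and 2.34% lower). It averaged 404 in MCD+HF+Met livers, 240.4 in MCD+HF livers and 223 in NC livers, a rise of 0.70 (limma adjusted p = 0.034). The call was lost without MCD+HF+Met replicate 1, 2 or 3 (limma adjusted p = 0.0831, 0.111 and 0.0625) and without MCD+HF replicate 1, 2 or 3 (limma adjusted p = 0.0649, 0.11 and 0.0533). The log2 change without 1 array ranged between 0.58 and 0.87.

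The citric acid cycle, which receives the acetyl-CoA, had 12 of 13 tested genes called with the diet, 4 higher and 8 lower, with a median of -0.36, against 48.2% of all genes (27.4% higher and 20.8% lower, median 0.05). Mdh2, malate dehydrogenase, rose by 1.20 (limma adjusted p = 7.12e-08), while the succinate dehydrogenase subunits Sdha and Sdhb fell by 0.60 (limma adjusted p = 0.000113) and 0.72 (limma adjusted p = 0.00014). Cs, citrate synthase, which consumes acetyl-CoA, averaged 931 in MCD+HF+Met livers, 721 in MCD+HF livers and 486 in NC livers. Its diet change was 0.56 (limma adjusted p = 0.00134), and in MCD+HF+Met against MCD+HF livers it stood at 0.37 (limma adjusted p = 0.103).

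Among 13 tested genes known to act on the Pdk genes or their hormonal control, 3 rose and 5 fell with the diet (median -0.06), 8 of 13 against 48.2% of all genes. The insulin receptor Insr fell by 0.74 (limma adjusted p = 9.15e-05), while Irs2, its substrate, rose by 1.66 (limma adjusted p = 0.000503) and the coactivator Ppargc1a rose by 1.54 (limma adjusted p = 0.00135). Hif1a, a regulator of Pdk1 under hypoxia, rose by 0.49 (limma adjusted p = 0.000855). The nuclear receptor Ppara fell by 0.54 (limma adjusted p = 0.00761), its partner Rxra by 0.49 (limma adjusted p = 0.0331), the glucocorticoid receptor Nr3c1 by 0.61 (limma adjusted p = 0.00209) and the coactivator Ppargc1b by 0.74 (limma adjusted p = 0.00262). Irs2 averaged 56.1 in MCD+HF+Met livers, 124 in MCD+HF livers and 30 in NC livers, and Ppargc1a averaged 263 in MCD+HF+Met livers, 568 in MCD+HF livers and 162 in NC livers. Both had MCD+HF+Met means between those of the other groups, as had Hif1a, Insr and Rxra, whereas Ppara, Nr3c1 and Ppargc1b were lowest in MCD+HF+Met livers. Neither Irs2 nor Ppargc1a passed between MCD+HF+Met and MCD+HF livers (limma adjusted p = 0.108 for Irs2 and 0.166 for Ppargc1a).

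Pdk4 is a known target of PPARalpha, and of 13 other tested targets 7 rose and 2 fell with the diet (median 0.36), against 27.4% of all genes higher and 20.8% lower (median 0.05). Fgf21, a fasting hormone of the liver, rose by 2.24 (limma adjusted p = 1.43e-06), the thioesterase Acot1 by 2.13 (limma adjusted p = 3.32e-05) and the lipid droplet protein Plin2 by 0.71 (limma adjusted p = 0.000179). Acaa2, a thiolase of beta-oxidation, fell by 0.59 (limma adjusted p = 9.33e-05). Fgf21 averaged 186 in MCD+HF+Met livers, 241 in MCD+HF livers and 45.1 in NC livers. The change of Pdk4, at 6.31, exceeded that of every tested gene in the 6 lists.

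**Figure D5:**
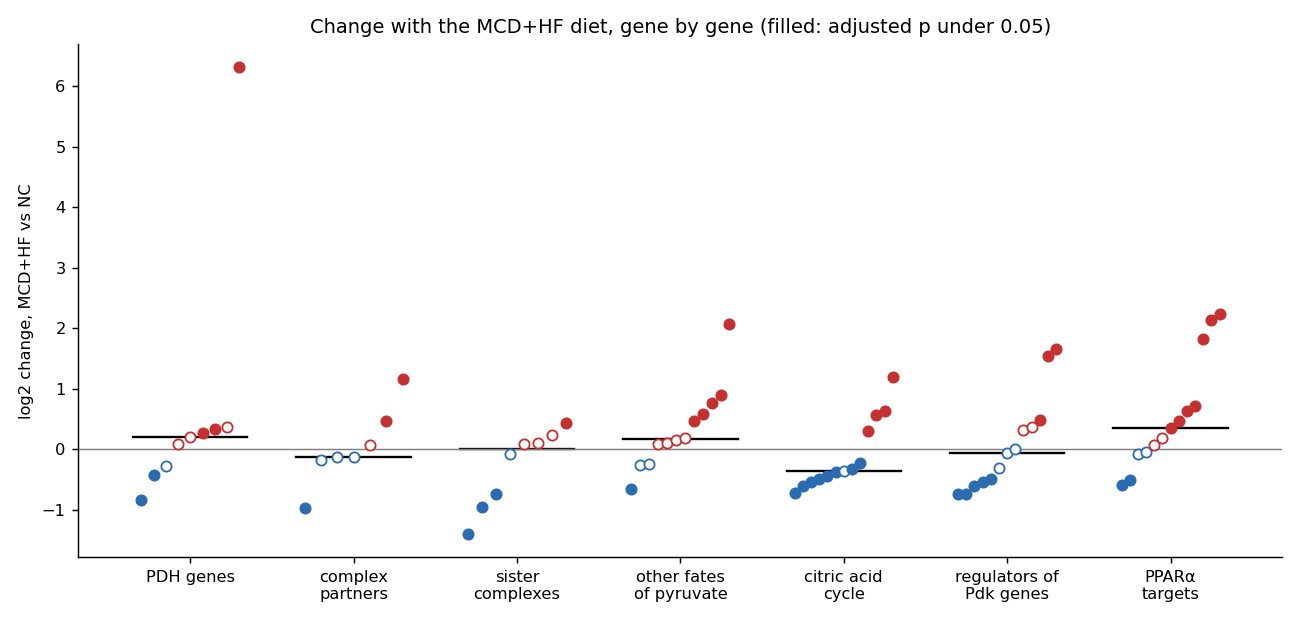
Log2 change of MCD+HF against NC livers (y axis) for the 9 tested pyruvate dehydrogenase genes and the tested genes of 6 lists (x axis); points are genes, red above and blue below 0, filled where limma adjusted p was under 0.05, and bars are medians. Pdk4 stands at 6.31, and the citric acid cycle has 8 filled points below 0 and 4 above, with a median of -0.36.

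The range of the 3 group means on the log2 scale was widest for Pdk4, at 6.31, and next for Pdk2, at 0.84. The genes whose 12 centred log2 values lay closest to those of Pdk4 were Cidec, Cyp2b9 and Mmp7, with root mean square differences of 0.75, 0.79 and 0.82. Cidec, a lipid droplet protein, averaged 669 in MCD+HF+Met livers, 749.5 in MCD+HF livers and 18.4 in NC livers. Cyp2b9 went the other way with metformin, at 1039.6 in MCD+HF+Met livers, 727 in MCD+HF livers and 15.1 in NC livers. Mmp7 averaged 1016 in MCD+HF+Met livers, 1001 in MCD+HF livers and 21.8 in NC livers. Closest to Pdk2 were Akr7a5, Faah and Adi1, at 0.09, 0.11 and 0.12. Faah, which hydrolyses fatty acid amides, averaged 256 in MCD+HF+Met livers, 213 in MCD+HF livers and 405 in NC livers.

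The median correlation of an array with the others of its group lay between 0.972 and 0.982. The 3′ over 5′ signal ratio of Actb was 1.73 ± 0.114 in MCD+HF+Met livers, 1.54 ± 0.0694 in MCD+HF livers and 1.73 ± 0.140 in NC livers (SD, n = 4 each), and that of Gapdh was 0.757 ± 0.0451 in MCD+HF+Met livers, 0.699 ± 0.0123 in MCD+HF livers and 0.710 ± 0.0122 in NC livers. The Actb ratio was lowest in MCD+HF livers and the Gapdh ratio highest in MCD+HF+Met livers, and their part in the values of the 10 genes was not tested. The labels name no batch, and no 2 arrays had more than 1.12% of values equal. The labels number the mice within each group, and the tests set differences between group means against the spread of mice within groups.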

How the data were processed

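Signal intensity was deposited per probe set by the authors, who ran GCOS with default settings on each array and scaled all probe sets to an average of 100; the average over probe sets with the extreme 2% of each tail removed was 100 on every array. The platform annotation named the genes, and old symbols were updated through RefSeq. From these signals, log2(signal + 10) was computed and tested with limma 3.58.1 in R 4.3.3 (eBayes with trend, 12 arrays in 1 model, 9 residual degrees of freedom). Non-control probe sets averaging 20 or more over the 12 arrays entered the test (22832), and p-values were adjusted over them by Benjamini-Hochberg, with a threshold of 0.05. The Affymetrix control probe sets (64 of 45101) were left out. Shares over all genes use the brightest probe set of each gene.

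All 10 genes are named. From each pathway list, up to 4 genes with the lowest adjusted p in each comparison were eligible to be named, and Dld and Rxra are named besides, chosen after their values were seen. For the genes most like Pdk4 and Pdk2, the 3 with the lowest root mean square difference were taken. The genes, lists and markers were chosen with earlier results of these data known. The limma script was tested on simulated data. Alternatives changed the offset, the filter, the normalization, the variance model, the arrays in the model, the test (the methods' t-test, without their GCOS change call) and the probe set, added the replicate number as a block, or left out each array in turn. Promoter windows came from a RefSeq table on GRCm38.p6, in which 9 of the 10 genes were matched. Some list genes were not analysed here, and Ppard was too dim to test. Plots were drawn with matplotlib 3.10.9. The number of arrays limits the precision.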

Additional observations from a re-analysis of the deposited data

Results flagged for a closer look

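In the MCD+HF group, the Pdk1 signal of replicate 3, 693, stood apart from the other 3 mice at 578 to 594. In the MCD+HF+Met group, the Pdk2 signal of replicate 4, 224, stood apart from the other 3 mice at 268 to 274. Each was marked because its gap to the nearest mouse took up most of the range of its group, by Dixon's criterion. This was looked for in 30 groups of 4 mice, and chance marks about 1 in 20. Without MCD+HF+Met replicate 4, the Pdk2 fall in MCD+HF+Met against NC livers remained a call.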

How the results depend on the processing

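The number of the 9 genes called between MCD+HF+Met and MCD+HF livers was 0 under every alternative run. For MCD+HF against NC livers, it was 5 as reported, 2 by the methods' t-test with its 1.5-fold rule, 3 by that t-test after Benjamini-Hochberg, and 3 to 5 when 1 array was left out, falling to 3 without MCD+HF replicate 3 or without NC replicate 1, 2 or 3. For MCD+HF+Met against NC livers, it was 4 as reported, 1 by the 1.5-fold rule, and 3 to 6 when 1 array was left out. Of 609 values of single genes under an alternative, 553 kept their direction and side of the threshold, 36 lost a call, 8 gained one and 12 turned direction. The rise of Pdk4 in both comparisons with NC livers and the fall of Pdk2 in MCD+HF livers were called under all 22 alternatives, and the fall of Pdhb in MCD+HF livers was lost only under the 1.5-fold rule, though quantile normalization took it to -0.23 (limma adjusted p = 0.0404) and its MCD+HF+Met against NC value to -0.05. With no filter on dim probe sets the counts, with Pdk3 now among those tested and called with the diet, were 0, 4 and 3, and Pdha1 (limma adjusted p = 0.0501) and Dlat (limma adjusted p = 0.0643) lost their diet calls and Pdhx its MCD+HF+Met against NC call (limma adjusted p = 0.0561). With only the 2 groups in the model, Pdha1 lost its diet call (limma adjusted p = 0.0512). For Pdk4 in MCD+HF+Met against MCD+HF livers, the methods' t-test gave an unadjusted p of 0.0965.

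The values that turned direction were all small or came from another probe set. For MCD+HF+Met against MCD+HF livers, Pdp2 was 0.11 without MCD+HF+Met replicate 1 (range without 1 array -0.25 to 0.11), Pdhx 0.02 without MCD+HF+Met replicate 3 (-0.13 to 0.02), and Pdp1 -0.06 without MCD+HF+Met replicate 4 and 0.00 without MCD+HF replicate 2 (-0.06 to 0.16). In the same comparison Dlat was 0.05 without MCD+HF+Met replicate 4, 0.01 without MCD+HF replicate 3, 0.03 without MCD+HF replicate 4 (-0.12 to 0.05) and 0.11 in the probe set open to cross-hybridisation, and Pdha1 was -0.07 in its other probe set. For MCD+HF+Met against NC livers, Pdp2 was -0.05 without MCD+HF+Met replicate 2 (-0.05 to 0.32). The dimmest of the tested Pdk1 probe sets was at -0.61 for MCD+HF and -0.58 for MCD+HF+Met against NC livers. The cause of these turns was not tested.

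Quantile normalization moved the median of all genes to 0.03, -0.01 and 0.03 in MCD+HF+Met against MCD+HF, MCD+HF against NC and MCD+HF+Met against NC livers, where it was 0.01, 0.05 and 0.06 as deposited; under it Dlat lost its diet call (limma adjusted p = 0.0822) and Pdhx gained one (limma adjusted p = 0.0308). The deviations of same-numbered mice correlated at -0.134 to 0.251, with 2 of 12 pairs over 0.1. The labels do not say whether the numbers pair the mice, and low correlations cannot exclude a pairing. With the replicate number as a block, the counts were 0, 4 and 4, and the lost call was Dlat (limma adjusted p = 0.0717). Pdk3, the untested Pdk1 probe set and the dimmer Pdp1 probe set lay too near the floor for a fold change to be read. Pdk4 had 36.8 in NC livers, near enough to the floor that its fold depends on the offset, with log2 changes of 5.75 to 6.63 for MCD+HF against NC livers over the alternatives.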
